A study of Mus musculus with 72 samples.

Results

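Spleens of mice that received the CMV-siRE circuit were set against spleens of mice that received the scrambled control circuit CMV-scrR. The 8 libraries, 4 for each circuit, were taken by the organ and circuit in their labels from the 72 libraries of the study, which cover 6 tissues and 3 circuits. A genetic circuit here is a plasmid whose CMV promoter drives a small RNA that the recipient's own cells are meant to make and pass on in vesicles. The siRNA of CMV-siRE is aimed at EGFR, and that of CMV-scrR is a scrambled sequence. CMV-GE11-siRE, the other circuit of the study, adds the EGFR-binding peptide GE11 to the same siRNA, and its 4 spleen libraries are given beside the comparison only to say where the 2 EGFR circuits differ. Every mouse, controls included, carried the EGFR DEL19 transgene, received doxycycline for 25 days, was checked by micro-CT for lung tumours, and then had 7 intravenous injections of 10 mg/kg, 1 every 2 days, with tissue taken at Day 14. The controls are therefore tumour-bearing, doxycycline-treated and circuit-injected, and no untreated or wild-type spleen enters the comparison. The labels do not name the promoter that drives the transgene, nor the age and sex of the mice. They also do not state whether each library comes from its own animal, so p-values measure the spread between these libraries, which may in part be technical.

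The mouse spleen filters blood and, unlike the adult human spleen, also makes red cells. Its red pulp holds erythroblasts, which load the cell with haemoglobin and remodel the membrane, and macrophages that take up old red cells and return their iron. Its white pulp holds B and T cells, with dendritic cells that present antigen and a marginal zone rich in scavenging macrophages. Type I and type II interferons act on nearly all of these cells through JAK kinases and STAT factors, and switch on a broad set of antiviral and antigen presentation genes, many through a short promoter element bound by STAT and IRF factors. Plasma cells, the end stage of B cells, fill with the messenger RNA of the one antibody that each of them secretes.

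The normalised values of a library, which are gene values the authors divided by a size factor, summed to between 18.34 M and 20.9 M, and between 19598 and 21522 genes were above 0. B cell, T cell, red pulp, marginal zone and splenic stroma markers were present in all 12 spleen libraries. Over the 12 libraries, the pancreas genes Cela2a, Cpa1, Pnlip and Ins1 were at most 9.2 and the fat gene Adipoq at most 7.7, while the liver gene Alb ran from 31.9 to 1730.8 and the mesothelial gene Msln from 24.2 to 254.6. The lung gene Sftpc was low but did not overlap between the compared groups, at 4.0 to 43.1 in controls and 0.0 to 2.4 in CMV-siRE libraries. It was at 0.0 to 7.6 in CMV-GE11-siRE libraries, and its origin was not tested. All 23 listed pancreas genes together summed to 376.4 to 503.1 in controls and 541.1 to 684.2 in CMV-siRE libraries, and of the 3 tested the elastase Cela1 rose (317 ± 55.6 against 510 ± 50.3, SD, n = 4, adjusted p = 0.0211; up to 0.0579 without a single library, CMV-siRE replicate 4). Globin genes made up 4.19% to 5.65% of a control library and 0.558% to 1.48% of a CMV-siRE library. Mitochondrially encoded genes made up 1.59% to 1.74% of a control library and 2.05% to 2.26% of a CMV-siRE library, and immunoglobulin genes 0.746% to 1.43% and 1.49% to 2.03%. The clock gene Dbp, which follows the time of day, stood at 140.9 to 229.1 in controls and 207.1 to 271.7 in CMV-siRE libraries. The part of these shares and of Dbp in the results that follow was not tested. Fits with Dbp as a covariate are given below, but Dbp itself differed by circuit (log2 difference 0.42, not passing the test). Those fits therefore also take away part of the circuit contrast, and a call lost in them cannot be assigned to Dbp or to the circuit.

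Of 16015 genes tested, 277 were higher (1.73%) and 462 lower (2.88%) in CMV-siRE than in CMV-scrR spleens at an adjusted p under 0.05, together 739 genes (4.61%). These shares of 1.73% and 2.88% are the background for every count of called list members below. The test was limma on log2(value + 1), with Benjamini-Hochberg adjustment over all genes, and all differences below are on that scale, CMV-siRE minus CMV-scrR, with their standard error. Of the genes called, 107 rose by more than 1 log2 unit and 188 fell by more than 1. The genes that fell were led by the apolipoprotein L family, globins and interferon-stimulated genes, and those that rose by immunoglobulin variable segments and the macrophage receptor Marco. Of the 277 genes higher, 55 were immunoglobulin genes. Tested were 94 heavy, 91 kappa and 3 lambda variable segments and 12 constant regions, and some segments could enter the test through their CMV-siRE values alone. The direction split depends on scaling. Genes higher were 37.5% of the calls as deposited, 64.6% (647 higher and 354 lower) after scaling by the column total, which moved the median of all genes from 0.00 to 0.10, and 51.8% (403 and 375) when mitochondrial, globin and immunoglobulin genes were left out of that total. With Dbp as a covariate 119 genes were higher and 116 lower. Without control replicates 1 and 3, an alternative chosen after seeing the data because 1 or the other was the highest control for nearly all interferon genes, 141 were higher and 142 lower.

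**Figure D1:**
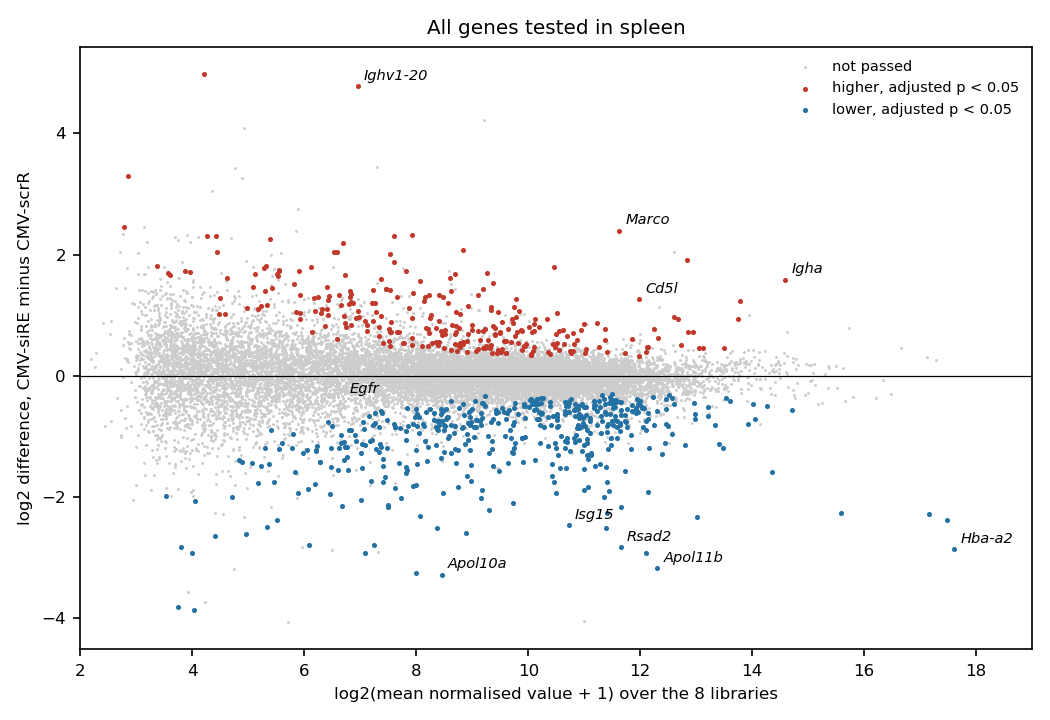
Difference between CMV-siRE and CMV-scrR spleens (y axis, log2) against the mean normalised value of the 8 libraries (x axis, log2(mean + 1)) for the 16015 genes tested. Each point is a gene; 277 red points are higher and 462 blue points lower at an adjusted p under 0.05, with Marco and Igha among the first, Apol11b, Apol10a, Hba-a2, Rsad2 and Isg15 among the second, and Egfr among the grey points.

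Egfr, the mouse gene of the receptor that the siRNA is aimed at, annotated at chr11:16752203-16918158 on the plus strand (GENCODE M21, GRCm38), was weakly expressed in spleen and did not pass the test. It stood at 95.0, 63.6, 229 and 95.9 in the 4 controls and at 91.4, 98.8, 57.6 and 87.9 in the 4 CMV-siRE libraries, so the groups overlapped and control replicate 3 was the highest of the 8. The difference was -0.38 ± 0.32 (adjusted p = 0.539), with a two-sided exact permutation p of 0.371 over the 70 arrangements of 4 against 4, whose smallest possible p is 0.0286. Without control replicates 1 and 3 it was 0.07, and with Dbp as a covariate 0.13, so its sign differed between fits. Of 10 tested members of the EGFR family and its ligands, none passed in limma, and 0 had an unadjusted p under 0.05 (median -0.05, range -0.38 to 0.29). The receptors Erbb2 (136 ± 26.8 against 119 ± 24.8, SD, n = 4) and Erbb3 (135 ± 16.5 against 115 ± 11.98) had close means.

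Of 17 tested feedback regulators and ETS targets of the MAPK pathway, which act downstream of receptor kinases, 3 fell and none rose (median -0.20), against 2.88% lower over all genes. Ccnd1, the cyclin that growth signals induce to start the cell cycle, stood at 2623, 2293, 2317 and 2418 in controls and at 1500, 1563, 1538 and 1462 in CMV-siRE spleens. These groups were far apart for their narrow spread, and the difference was -0.67 ± 0.09 (adjusted p = 0.00123). Dusp5, a phosphatase that ERK induces and that then acts on ERK, fell from 671 ± 76.6 to 375 ± 58.6 (-0.84 ± 0.13, adjusted p = 0.00356), and missed the threshold with Dbp as a covariate (adjusted p = 0.0621) and without control replicates 1 and 3 (0.0514). The third, Phlda1, fell by 0.82 (adjusted p = 0.0263), and missed the threshold when control replicate 1, control replicate 4 or CMV-siRE replicate 2, 3 or 4 was left out (adjusted p up to 0.0719). None of 30 cell cycle genes passed in limma and 6 had an unadjusted p under 0.05, all lower, while all 30 differences were below 0 (median -0.26), and Mki67 ranged from 8324 to 19661 in controls and from 6851 to 12321 in CMV-siRE libraries. None of 13 genes of the small RNA machinery passed in limma (1 was lower at an unadjusted p under 0.05), among them the slicer Ago2 (5736 ± 1375 against 4896 ± 1109).

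Many red cell genes were lower in CMV-siRE spleens. Of 16 tested genes of globin and haem synthesis, 7 fell and none rose (median -0.77), and of 23 genes of the red cell membrane and late maturation, 10 fell and none rose (median -1.05), against 2.88% lower and a median of 0.00 over all genes. Alas2, the erythroid enzyme that starts haem synthesis (chrX:150547375-150570638, plus strand), stood at 13353, 16601, 13928 and 10731 in controls and at 4708, 2786, 1728 and 2315 in CMV-siRE spleens. No CMV-siRE value came near the lowest control. The means were 4.73-fold apart, and the log2 difference was -2.33 ± 0.26 (adjusted p = 0.000328). Hbb-bs, an adult beta globin (chr7:103826534-103828096, minus strand), fell from 301522, 347010, 311756 and 255056 to 97965, 59716, 35652 and 53184 (-2.39 ± 0.27, adjusted p = 0.000404). The alpha globin Hba-a2 fell by 2.86 (adjusted p = 0.000147), Hba-a1 by 2.28 and Hbb-bt by 2.27 (both adjusted p = 0.000731). The paired alpha and paired beta globin genes are near-identical copies, so the share of reads each received is uncertain. In a bulk sample, fewer cells of a type and less RNA in each cell cannot be told apart.

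Among the maturation genes, Bpgm, which makes the 2,3-bisphosphoglycerate that loosens oxygen from haemoglobin, went from 3408, 5522, 5358 and 3533 to 1599, 898, 719 and 651 (-2.26 ± 0.24, adjusted p = 0.000322). Mkrn1, a ubiquitin ligase, had narrow groups, at 7116, 8593, 8240 and 6711 against 3337, 3295, 2862 and 3009 (-1.29 ± 0.12, adjusted p = 0.000129). Epb41, which ties spectrin and actin to the membrane, fell by 1.14 and the erythroid ubiquitin ligase Trim10 by 1.84. Outside the lists, the 15 largest falls among genes whose groups did not overlap included Tmcc2 (4126, 12382, 8628 and 6137 against 1522, 934, 746 and 767; -2.92 ± 0.33, adjusted p = 0.000405), the ribosome-associated Slfn14 (-2.59) and Sowaha (-2.51).

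**Figure D2:**
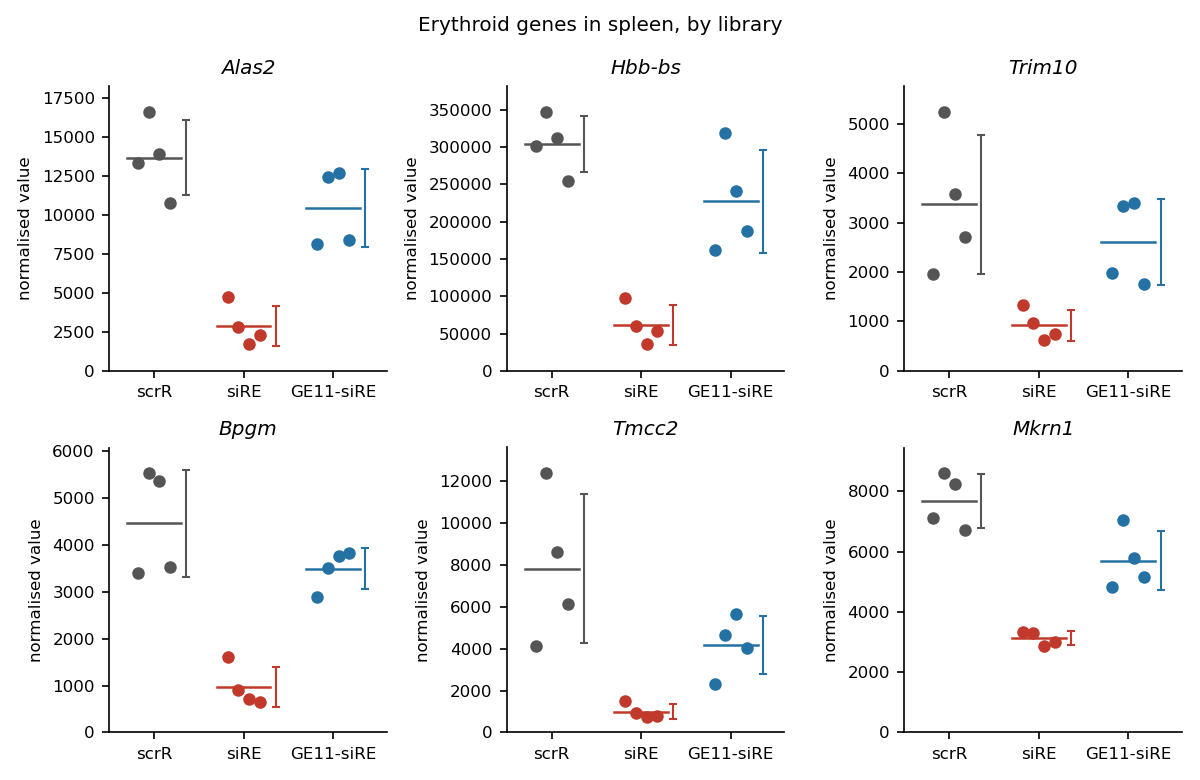
Normalised values of 6 erythroid genes in spleen on linear axes from 0, with 1 point per library for the 3 circuits; the line is the mean and the bar beside it 1 SD (n = 4). In each panel the 4 CMV-siRE points lie below all 4 controls, and the CMV-GE11-siRE points lie between them or among the controls.

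Of 17 tested genes of erythroid progenitors, 3 fell (Nfe2, Zfpm1 and Aqp9; median -0.72), against 2.88% lower over all genes, and in 8 all 4 CMV-siRE values were below all 4 controls, against 7.06%. The count of 3 went to 0 without control replicate 2 or CMV-siRE replicate 3 and to 1 without control replicate 1, 3 or 4 or CMV-siRE replicate 1. The highest adjusted p without a single library was 0.0569 for Nfe2 and 0.110 for Aqp9 (both without CMV-siRE replicate 3) and 0.116 for Zfpm1 (without control replicate 2). Gata1, the master regulator of the lineage, stood at 3094, 3502, 2912 and 2404 against 1382, 2100, 1033 and 1984. The groups did not overlap, yet the difference of -0.92 ± 0.32 did not pass (adjusted p = 0.126). Klf1, which switches on adult globin, gave -0.93 ± 0.35 (adjusted p = 0.151), the transferrin receptor Tfrc -0.56 ± 0.25 (adjusted p = 0.217) and the stem cell factor receptor Kit -0.35 ± 0.13 (adjusted p = 0.155). Without control replicates 1 and 3, the calls in the haem, membrane and progenitor lists were 7, 8 and 0, and with Dbp as a covariate 5, 5 and 0.

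At some of these genes the 2 EGFR circuits differed. In the direct test of CMV-GE11-siRE against CMV-siRE, 15 genes of 16015 were higher (0.0937%) and 3 lower (0.0187%). Of the 146 genes that the naming rule selected, 10 passed this test, 5 without CMV-siRE replicate 2 or without replicate 4, and 1 with Dbp as a covariate. Most of the 146 were selected by their CMV-siRE values, which this test uses again. That favours a pass, so the count of 10 gives no separate support for a difference between the circuits. The same reuse holds for the called genes compared between the 2 circuits below. Of the 15, 5 came from the haem list and 3 from the membrane list. Alas2 was 1.92 ± 0.26 higher in CMV-GE11-siRE (10430 ± 2485 against 2884 ± 1291, adjusted p = 0.00854), Bpgm 1.94 ± 0.24 (adjusted p = 0.00854), Hbb-bs 1.93 ± 0.27 (adjusted p = 0.0100), Mkrn1 0.85 ± 0.12 (adjusted p = 0.0100) and Tmcc2 2.06 ± 0.33 (adjusted p = 0.0263). Both circuits were compared with the same controls, and the median of the haem list was -0.09 for CMV-GE11-siRE beside -0.77 for CMV-siRE. For the membrane list the medians were -0.07 and -1.05.

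Many interferon-stimulated genes were lower in CMV-siRE spleens. Of 29 tested effectors, the proteins that block viral replication or tag other proteins, 19 fell and none rose (median -1.12), and in 24 all 4 CMV-siRE values were below all 4 controls, against 7.06% of all genes. Of 17 interferon-inducible GTPases, which attack the membranes around intracellular microbes, 12 fell and none rose (median -1.14). Over all genes 2.88% were lower. Promoters of these genes are shown because the members moved together and many carry the same short element. The core of the interferon-stimulated response element, GAAA, any 2 bases and GAAA again (TTTC, any 2 bases and TTTC on the other strand), was found in 3.44% of 32851 RefSeq promoters of 300 bases (250 before to 50 after the start, GRCm38.p6). It was found in 10 of the 22 effectors with a promoter in that table and in 10 of 10 GTPases, and a match says only that the letters are present. Bst2, Ifit3, Ifit3b, Trim30a, Gbp2b and Gbp3 carried it and did not pass the test. Several effectors in that promoter table fell without it, Oasl2 and Ifi47 among them. Whether carrying the core goes with a fall was not tested. Printed are the 130 bases just before the RefSeq start, 5′ to 3′ on the gene's strand, with matches in capitals, for Isg15 (chr4:156200819-156200948, minus strand), Rsad2 (chr12:26456453-26456582, minus), Ifit1 (chr19:34640759-34640888, plus) and Igtp (chr11:58199426-58199555, plus).
Isg15: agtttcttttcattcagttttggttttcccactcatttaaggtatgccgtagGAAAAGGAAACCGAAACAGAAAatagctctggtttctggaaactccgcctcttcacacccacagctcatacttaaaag
Rsad2: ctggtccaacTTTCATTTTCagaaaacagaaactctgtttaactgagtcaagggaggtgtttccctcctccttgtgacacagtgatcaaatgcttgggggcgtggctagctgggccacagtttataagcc
Ifit1: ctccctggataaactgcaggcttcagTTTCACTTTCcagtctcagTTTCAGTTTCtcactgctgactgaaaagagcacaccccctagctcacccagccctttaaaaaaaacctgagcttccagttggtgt
Igtp: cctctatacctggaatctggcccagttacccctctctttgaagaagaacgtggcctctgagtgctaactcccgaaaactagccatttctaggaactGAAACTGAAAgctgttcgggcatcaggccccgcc
In Isg15 the 3 overlapping matches begin between 78 and 66 bases before the start, in Rsad2 the match begins 120 bases before it, in Ifit1 104 and 85, and in Igtp 34.

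Rsad2 (viperin, an enzyme that makes a chain-ending nucleotide against viral polymerases) stood at 5943, 7166, 5368 and 4046 in controls and at 1234, 740, 568 and 707 in CMV-siRE spleens. The highest CMV-siRE value was far below the lowest control, and the difference was -2.82 ± 0.25 (adjusted p = 0.000129). Isg15, the ubiquitin-like modifier, went from 4548, 2574, 2715 and 1684 to 634, 434, 340 and 607 (-2.47 ± 0.29, adjusted p = 0.000432). Control replicate 1 was the highest control for Isg15, as it was for 27 of the 29 effectors. Oasl2, an oligoadenylate synthetase-like protein, was nearly uniform after CMV-siRE, at 1164, 1085, 1058 and 1203 against 7891, 4492, 5377 and 3485 (-2.17 ± 0.20, adjusted p = 0.000129). Its relatives Oas2 and Oas3, which make the 2-5A signal for RNase L, fell by 1.48 and 1.90. Ifit1, which binds foreign capped RNA, fell from 928 ± 557 to 226 ± 29.3, Ifi44 from 787 ± 390 to 215 ± 11.1, Rtp4 from 2059 ± 1039 to 689 ± 76.1 and the exonuclease Isg20 from 2251 ± 398 to 986 ± 161. Mx1, which traps viral nucleocapsids, did not pass (-0.51 ± 0.32, adjusted p = 0.397), at 1916, 734, 766 and 523 in controls against 712, 660, 697 and 422.

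Among the GTPases, Igtp (chr11:58199556-58207591, plus strand) stood at 5324, 2729, 4719 and 2091 in controls and at 1330, 1186, 1168 and 1388 in CMV-siRE spleens (-1.45 ± 0.23, adjusted p = 0.00377). Control replicates 1 and 3 were well above the other controls, and all 4 CMV-siRE values lay below the lowest control. Irgm1, which guards self membranes, fell from 4003 ± 1423 to 1732 ± 130, Irgm2 from 3182 ± 1153 to 1246 ± 97.8 and Gbp10 from 447 ± 169 to 89.1 ± 38.8. Tgtp1 (-1.43) and Tgtp2 (-1.53) fell together, and as near-identical neighbours they may share reads. The same holds for other members of the Gbp family.

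**Figure D3:**
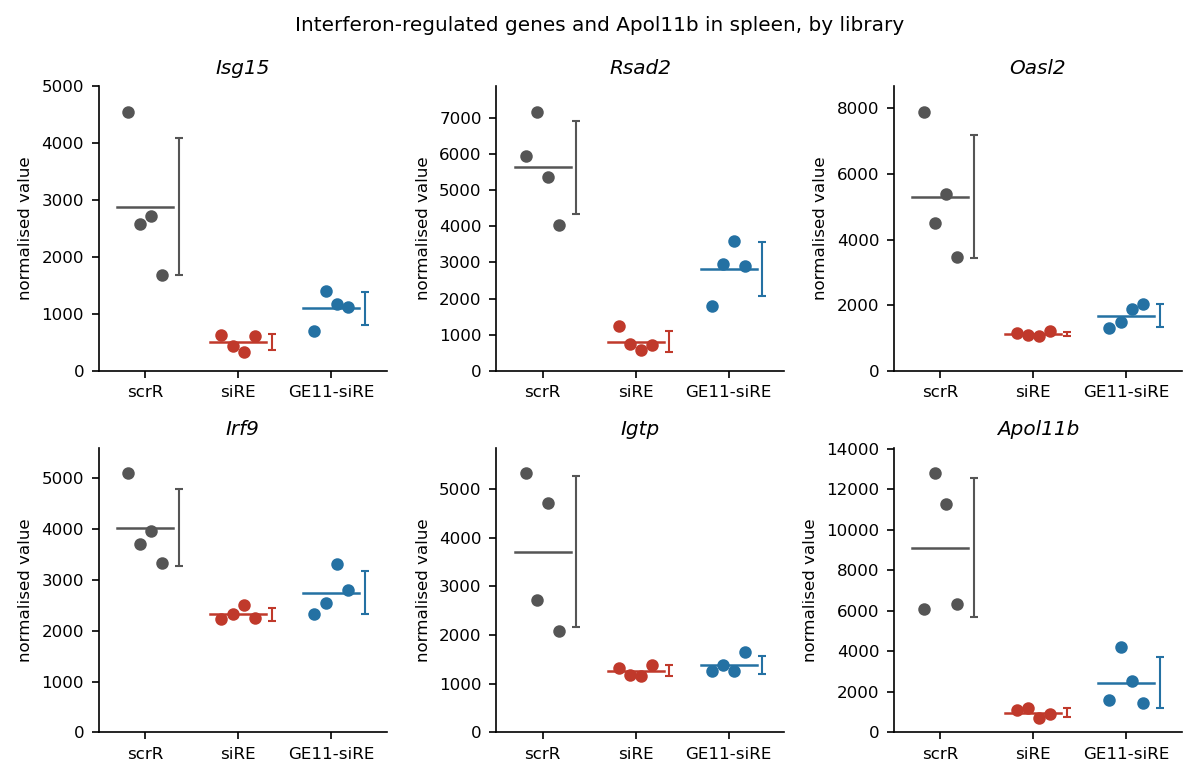
Normalised values of 5 interferon-regulated genes and Apol11b in spleen on linear axes from 0, with 1 point per library for the 3 circuits; the line is the mean and the bar 1 SD (n = 4). All 4 CMV-siRE points lie below the 4 controls in each panel, and the controls spread widely for Isg15 and Igtp.

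Of 19 tested interferon receptors, kinases, STATs and IRFs, 6 fell and none rose (median -0.25), against 2.88% lower over all genes, a share that also applies to the sensors and class I genes. Irf9, the DNA-binding subunit of the factor that type I interferon activates, fell from 4022 ± 758 to 2322 ± 126 (-0.78 ± 0.13, adjusted p = 0.00500), Irf1 from 5482 ± 1508 to 2955 ± 215 and the feedback inhibitor Socs1 from 752 ± 401 to 248 ± 50.6. Of 18 nucleic acid sensors 5 fell (Zbp1, Dhx58, Ifih1, Cgas and Adar; median -0.45), a count that was 1 without control replicate 3 or CMV-siRE replicate 1 or 2, 2 without CMV-siRE replicate 3 or 4 and 3 without control replicate 1. Without a single library the adjusted p reached 0.0538 for the Z-nucleic acid sensor Zbp1 and 0.0710 for the RNA sensor Ifih1 (control replicate 3 left out), 0.0850 for Dhx58 and 0.109 for Adar (CMV-siRE replicate 2) and 0.0745 for Cgas (CMV-siRE replicate 3). Of 18 genes of MHC class I presentation 6 fell (median -0.46), and 10 without control replicate 4. Tapbp, which loads peptide onto class I, stood at 12236, 9078, 10896 and 7963 against 6099, 5823, 6187 and 5992 (-0.72 ± 0.12, adjusted p = 0.00409). The peptide pump Tap1 fell by 0.67, the class I transactivator Nlrc5 by 0.81 and the class I gene H2-Q7, 1 of a set of close copies, by 0.56. B2m, the invariant chain of class I, did not pass (-0.21 ± 0.12, adjusted p = 0.342). None of 11 class II genes passed in limma (median -0.16; 2 were lower at an unadjusted p under 0.05), and Cd74, the class II chaperone, was 100955 ± 17966 against 81164 ± 7418.

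How much of the interferon result rests on 2 controls varied by list. Summed over the effectors, controls ran from 49455 to 106746, CMV-siRE libraries from 28962 to 32759 and CMV-GE11-siRE libraries from 32389 to 44051, with no overlap between controls and either EGFR circuit. Without control replicates 1 and 3 the effectors that fell numbered 11 (median -0.64), the GTPases 3 (median -0.56), the signalling genes 3, the sensors 0 and the class I genes 2. With Dbp as a covariate these counts were 11, 0, 1, 1 and 1. Leaving out single libraries gave 13 to 22 effectors and 9 to 12 GTPases. Rsad2, Isg15, Oasl2, Oas2, Oas3, Ifit1, Ifi44, Rtp4, Isg20, Irf9 and Tapbp passed under every alternative tried, while Igtp, Irgm1, Irgm2, Gbp10, Irf1, Socs1, Tgtp1 and Tgtp2 passed in each fit without a single library but not in both of these others.

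Rsad2 was also the effector that separated the EGFR circuits, with 2814 ± 741 in CMV-GE11-siRE against 812 ± 291 in CMV-siRE (1.81 ± 0.25, adjusted p = 0.00925). For Isg15 that difference was 1.13 ± 0.29 (adjusted p = 0.211) and for Oasl2 0.55 ± 0.20 (adjusted p = 0.393). Against the shared controls, the effectors had a median of -0.86 for CMV-GE11-siRE beside -1.12 for CMV-siRE, and the GTPases -1.02 beside -1.14.

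The apolipoprotein L genes, a cluster on chromosome 15 of lipid-binding proteins related to a human trypanosome-killing factor, held the largest falls. This family was picked after its values were seen. Of 13 tested members 8 fell and none rose (median -1.79), against 2.88% lower over all genes. The count was 5 without control replicates 1 and 3 and 4 with Dbp as a covariate. The same core was present in 8 of 11 members with a RefSeq promoter. Apol7e, 1 of those 8, did not pass in limma (-0.11 ± 0.19, adjusted p = 0.780). Shown are the 130 bases before the start of the members with the largest falls, Apol10a (chr15:77476917-77477046, plus strand), Apol11a (chr15:77508139-77508268, plus), Apol11b (chr15:77643287-77643416, minus) and Apol7c (chr15:77533316-77533445, minus), with matches in capitals.
Apol10a: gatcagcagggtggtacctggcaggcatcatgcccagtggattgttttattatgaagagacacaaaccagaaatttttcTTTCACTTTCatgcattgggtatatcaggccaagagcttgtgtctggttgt
Apol11a: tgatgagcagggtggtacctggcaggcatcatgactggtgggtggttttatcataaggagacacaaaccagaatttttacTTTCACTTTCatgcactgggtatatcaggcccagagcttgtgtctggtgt
Apol11b: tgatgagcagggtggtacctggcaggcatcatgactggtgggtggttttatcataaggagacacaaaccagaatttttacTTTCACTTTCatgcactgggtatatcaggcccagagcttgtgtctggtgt
Apol7c: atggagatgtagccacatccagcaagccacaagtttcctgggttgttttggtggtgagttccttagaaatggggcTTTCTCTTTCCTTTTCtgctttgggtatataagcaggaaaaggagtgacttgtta
The stretches of Apol11a and Apol11b were identical in 130 of 130 bases, and the match began 50 bases before the start in both, 51 in Apol10a, and 55 and 49 in Apol7c.

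Apol11b (chr15:77633946-77643286, minus strand) stood at 6093, 12792, 11296 and 6339 in controls and at 1089, 1213, 700 and 886 in CMV-siRE spleens. The means were 9.39-fold apart (-3.18 ± 0.32, adjusted p = 0.000183). Apol10a went from 480, 900, 723 and 444 to 65.0, 75.5, 40.0 and 74.2 (-3.28 ± 0.37, adjusted p = 0.000404), and Apol11a from 464 ± 228 to 45.7 ± 14.8 (-3.26 ± 0.45, adjusted p = 0.00146). Apol7c, at 1241, 876, 1189 and 797 against 342, 238, 169 and 159, fell by 2.21 (adjusted p = 0.000323). Here the EGFR circuits differed, since Apol7c was 959 ± 227 in CMV-GE11-siRE, 2.11 ± 0.24 above CMV-siRE (adjusted p = 0.00424), whereas the same difference for Apol11b was 1.23 ± 0.32 (adjusted p = 0.228). The control order also differed within the family: Apol11b was highest in control replicates 2 and 3, and Apol9b (322, 130, 270 and 117) and Apol10b (307, 134, 284 and 153) in replicates 1 and 3. Reads can be shared between these close copies.

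Some macrophage genes of the spleen were higher in CMV-siRE libraries. Marco, the scavenger receptor of marginal zone macrophages (chr1:120474538-120505024, minus strand), stood at 597, 968, 1522 and 1086 in controls and at 5517, 5110, 4021 and 6438 in CMV-siRE spleens. The groups were far apart, with means 5.05-fold different (2.39 ± 0.24, adjusted p = 0.000147). Of 22 tested genes of red pulp macrophages and iron recycling, 8 rose and none fell (median 0.46), against 1.73% higher over all genes. In 6 of the 22 all 4 CMV-siRE values were above all 4 controls, against 5.88% of all genes. Cd5l, a secreted macrophage protein (chr3:87357881-87371073, plus strand), stood at 2139, 1915, 3747 and 1964 against 5422, 6018, 5053 and 6154 (1.27 ± 0.18, adjusted p = 0.00166). Timd4, which binds phosphatidylserine on dying cells, rose from 363, 549, 580 and 670 to 1331, 1151, 1045 and 1146 (1.14 ± 0.18, adjusted p = 0.00339). Slc40a1, the iron exporter ferroportin, rose from 3237, 4003, 7022 and 4117 to 8131, 9710, 8001 and 7795 (0.93 ± 0.18, adjusted p = 0.0122). Spic, the transcription factor that red pulp macrophages need, rose from 1072, 1023, 1507 and 926 to 1819, 1743, 1903 and 1964 (0.74 ± 0.13, adjusted p = 0.00611). Control replicate 3 was the highest control for Cd5l, Slc40a1 and Spic, and still below every CMV-siRE library.

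**Figure D4:**
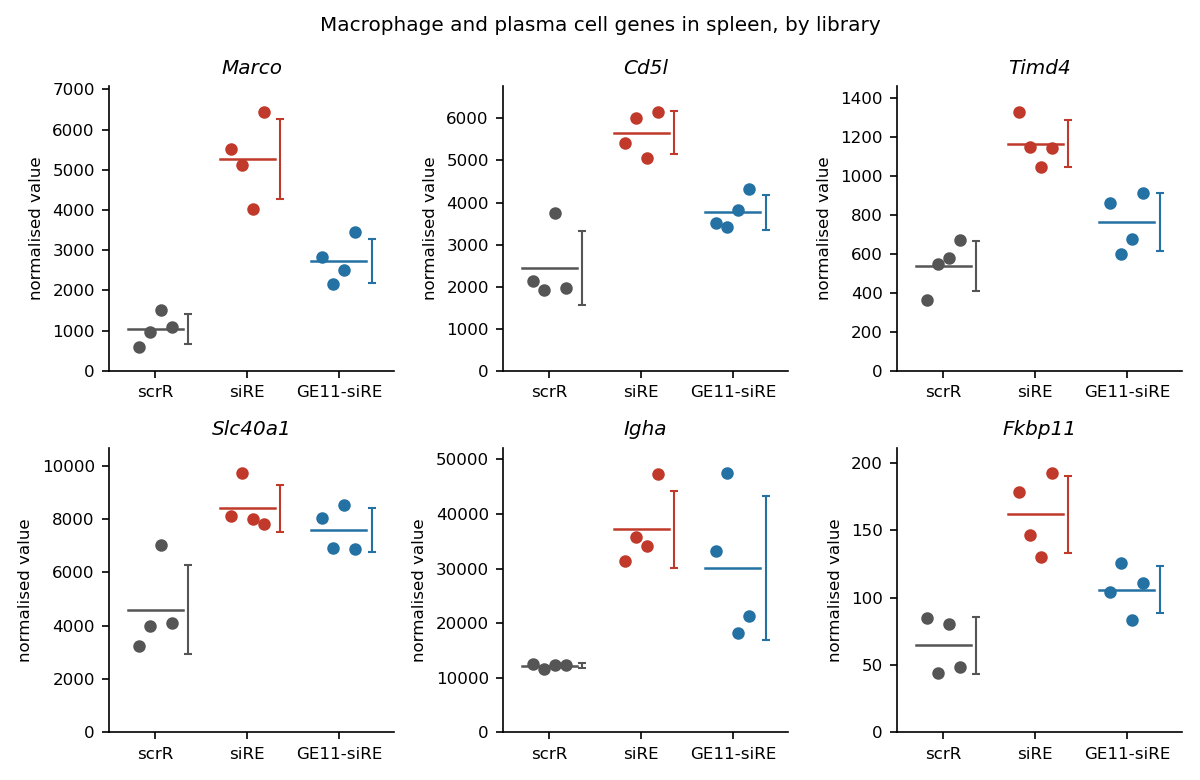
Normalised values of 4 macrophage genes, Igha and Fkbp11 in spleen on linear axes from 0, with 1 point per library for the 3 circuits; the line is the mean and the bar 1 SD (n = 4). All 4 CMV-siRE points lie above the 4 controls in each panel.

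These genes passed under every alternative tried, but the count of the red pulp list moved: it was 4 without control replicate 2 or 4 or CMV-siRE replicate 1 or 2, 5 without control replicate 1, 10 without control replicate 3, 11 without control replicates 1 and 3, and 5 with Dbp as a covariate. The haemoglobin receptor gene Cd163 did not pass (1.08 ± 0.31, adjusted p = 0.0666). Of 7 marginal zone genes Marco rose and Cd209a, a lectin also found on monocyte-derived dendritic cells, fell, against 1.73% higher and 2.88% lower over all genes. Siglec1, the sialoadhesin of metallophilic macrophages (1731 ± 489 against 2202 ± 544), and Cd209b, the lectin of marginal zone macrophages (94.1 ± 33.4 against 212 ± 39.3, adjusted p = 0.287), did not pass. Cd209a stood at 39.3, 122, 42.6 and 147 against 28.9, 23.2, 21.6 and 22.7, and missed the threshold without control replicate 2 (adjusted p = 0.0756, the highest) and without control replicate 4 or any 1 CMV-siRE library. In the direct test between EGFR circuits, Marco was -0.94 ± 0.24 in CMV-GE11-siRE relative to CMV-siRE (2739 ± 546, adjusted p = 0.211), and Cd5l -0.59 ± 0.18 (adjusted p = 0.305).

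Igha and many antibody variable segments were higher, while 11 of 12 tested constant regions did not pass. Igha, the constant region of IgA (chr12:113254830-113260236, minus strand), stood at 12621, 11552, 12362 and 12357 in controls and at 31360, 35812, 34142 and 47422 in CMV-siRE spleens. The SD of the controls was 464, and the means were 3.04-fold apart (1.59 ± 0.24, adjusted p = 0.00237). Of 22 plasma cell genes and antibody constant regions 4 rose (Igha, Fkbp11, Jchain and Mzb1) and none fell (median 0.49), against 1.73% higher over all genes. That count was 2 without control replicate 2 or 4 or CMV-siRE replicate 1 or 4, 7 without control replicate 1, 10 without control replicates 1 and 3, and 2 with Dbp as a covariate. The adjusted p reached 0.0585 for the antibody joining chain Jchain without CMV-siRE replicate 1 and 0.0737 for Mzb1 without control replicate 3. Fkbp11, a chaperone of the secretory path, rose from 85.2, 43.9, 80.6 and 48.6 to 178, 146, 130 and 192 (1.35 ± 0.24, adjusted p = 0.00604). Ighm (89051 ± 35008 against 117594 ± 22385) and Igkc (41450 ± 19117 against 67683 ± 11186) did not pass, and control replicate 1 was the highest control for both. The plasma cell regulators Xbp1 (0.40 ± 0.16, adjusted p = 0.187) and Prdm1 (0.47 ± 0.27, adjusted p = 0.337) did not pass either.

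Variable segments rose in number on both chains: 24 of 94 heavy chain segments and 27 of 91 kappa segments, with none lower and medians of 1.00 and 0.93, against 1.73% higher over all genes. Igkv1-110 stood at 590, 664, 639 and 627 in controls and at 2650, 1990, 1992 and 2130 in CMV-siRE spleens, the smallest adjusted p of the genes described here (1.79 ± 0.13, adjusted p = 4.41e-05). Ighv1-7 rose from 80.6 ± 20.99 to 404 ± 72.2, Igkv4-86 from 73.4 ± 23.9 to 293 ± 63.3, Ighv5-4 from 173 ± 60.7 to 736 ± 277 and Ighv2-2 from 104 ± 14.9 to 344 ± 22.3. Ighv1-20 was the extreme case, at 3.0, 2.0, 18.5 and 11.1 against 189, 332, 356 and 71.2 (4.78 ± 0.66, adjusted p = 0.00150), and 6.7, 31.4, 25.2 and 20.9 in CMV-GE11-siRE. Segments are short and alike, so reads can be shared among them. A segment low in the other circuits could enter the test through its CMV-siRE values alone, as Ighv1-37 did (given at the end). The counts of segments higher, the absence of lower ones and the medians are therefore in part set by that filter. How many segments entered in this way was not counted. The heavy segments called numbered 15 without CMV-siRE replicate 1 or 3, the kappa segments 15 without CMV-siRE replicate 1, and 14 each without control replicates 1 and 3. With Dbp as a covariate they numbered 10 and 13.

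Other B and T cell genes gave few calls. Of 23 B cell genes and 24 T cell genes 1 each rose (Bank1 and Il7r), with medians of 0.18 and 0.09, against 1.73% higher over all genes. None of 12 germinal centre genes passed in limma (1 was lower at an unadjusted p under 0.05). Without CMV-siRE replicate 3 the adjusted p of Bank1 was 0.108. Il7r, the survival receptor of naive T cells, rose from 604, 880, 768 and 758 to 1598, 1104, 1425 and 1126 (0.80 ± 0.14, adjusted p = 0.00708), and did not pass with Dbp as a covariate or without control replicates 1 and 3. Of 18 cytotoxic lymphocyte genes only the protease Gzmb fell, against 2.88% lower over all genes. Gzmb went from 750, 985, 1444 and 1057 to 198, 456, 331 and 474 (-1.58 ± 0.26, adjusted p = 0.00404), and it did not pass with Dbp as a covariate.

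Of 15 tested dendritic cell genes 5 fell and none rose (median -0.37), against 2.88% lower over all genes. These 5 passed in each fit without a single library, but 2 did without control replicates 1 and 3 and 0 with Dbp as a covariate. Xcr1, the chemokine receptor that marks cross-presenting dendritic cells, stood at 344, 294, 613 and 258 against 220, 115, 111 and 97.2 (-1.46 ± 0.27, adjusted p = 0.00889). Clec9a, a receptor for dead cells, stood at 506, 557, 930 and 416 against 300, 289, 202 and 205 (-1.23 ± 0.23, adjusted p = 0.00834). Batf3, the factor that cross-presenting cells need, fell from 313 ± 53 to 179 ± 11.3, the integrin Itgax (CD11c) from 2762 ± 600 to 1622 ± 164 and the growth factor receptor Flt3 from 819 ± 67.6 to 503 ± 62.6. Control replicate 3 was highest for Xcr1 and Clec9a.

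Of 13 monocyte genes 4 fell (Ly6c2, F13a1, Nr4a1 and Ace, median -0.39), against 2.88% lower over all genes. That count was 2 without control replicate 3 or CMV-siRE replicate 1, 2 or 3, and 0 with Dbp as a covariate or without control replicates 1 and 3. Ly6c2, the mark of classical monocytes, stood at 5976, 2180, 4423 and 3023 against 1562, 1447, 1456 and 1858 (-1.21 ± 0.24, adjusted p = 0.0131). Ace reached an adjusted p of 0.118 without CMV-siRE replicate 2, and F13a1 0.0772 without CMV-siRE replicate 3. Of 18 inflammatory cytokines and chemokines 4 fell (Il12b, Cxcl10, Il1b and Tnf) and 2 rose (Saa3 and Il18), against 2.88% lower and 1.73% higher over all genes. Il12b, a subunit of IL-12 and IL-23 made by dendritic cells and macrophages, went from 62.6, 51.7, 50.8 and 44.5 to 6.7, 7.7, 12.7 and 5.0 (-2.62 ± 0.30, adjusted p = 0.000432), and CMV-GE11-siRE, at 29.0, 26.9, 50.3 and 38.5, was 2.06 ± 0.30 above CMV-siRE (adjusted p = 0.0131). Tnf fell from 329 ± 50.1 to 185 ± 32.4 (-0.83 ± 0.16, adjusted p = 0.00877). Il18, a cytokine released by inflammasomes, rose from 411, 337, 522 and 380 to 626, 695, 633 and 774 (0.74 ± 0.14, adjusted p = 0.00889). The fallen cytokines numbered 2 without control replicate 3 or CMV-siRE replicate 3 and with Dbp as a covariate, and 1 without control replicates 1 and 3, where the list's median turned from -0.10 to 0.26. Left-out libraries raised the adjusted p to 0.0662 for Il1b (CMV-siRE replicate 1), 0.0709 for Cxcl10 (CMV-siRE replicate 2) and 0.0999 for Saa3 (control replicate 3). None of 19 neutrophil granule genes passed in limma (median 0.32; 6 were higher at an unadjusted p under 0.05), and S100a9 ranged from 1945 to 5620 in controls and from 2753 to 7670 in CMV-siRE spleens.

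Of 19 immediate early genes, which cells switch on within minutes of a stimulus, 9 fell and none rose (median -0.70), against 2.88% lower over all genes. The count was 5 without control replicate 1 or CMV-siRE replicate 2, and 3 without control replicates 1 and 3. Jund, an AP-1 subunit, stood at 4759, 3323, 2733 and 3178 against 1894, 2320, 1644 and 2060 (-0.80 ± 0.16, adjusted p = 0.0120). Nr4a1, a receptor induced by antigen signals, stood at 2304, 2228, 2638 and 2180 against 1477, 1479, 1582 and 1459 (-0.64 ± 0.11, adjusted p = 0.00483). Junb fell by 0.83, the phosphatase Dusp1 by 0.89 and Atf3 by 1.2, while Fos did not pass (-1.06 ± 0.38, adjusted p = 0.133). Of 13 heat shock chaperones 5 fell (Hspa1b, Hspb1, Hspa1a, Hsph1 and Bag3, median -0.27), against the same share over all genes. That count was 3 without control replicate 1 or 3 or CMV-siRE replicate 1 or 3, and 1 without control replicates 1 and 3. Hsph1 reached an adjusted p of 0.101 without CMV-siRE replicate 2 and Bag3 0.0721 without control replicate 3. Hspa1b, an inducible HSP70, stood at 537, 264, 234 and 316 against 55.5, 95.8, 59.6 and 119 (-2.02 ± 0.28, adjusted p = 0.00155), with its near-identical copy Hspa1a at -1.55 ± 0.30 (adjusted p = 0.00979) and the small chaperone Hspb1 at -1.94 ± 0.40 (adjusted p = 0.0158). With Dbp as a covariate 1 member of each of these lists passed.

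**Figure D5:**
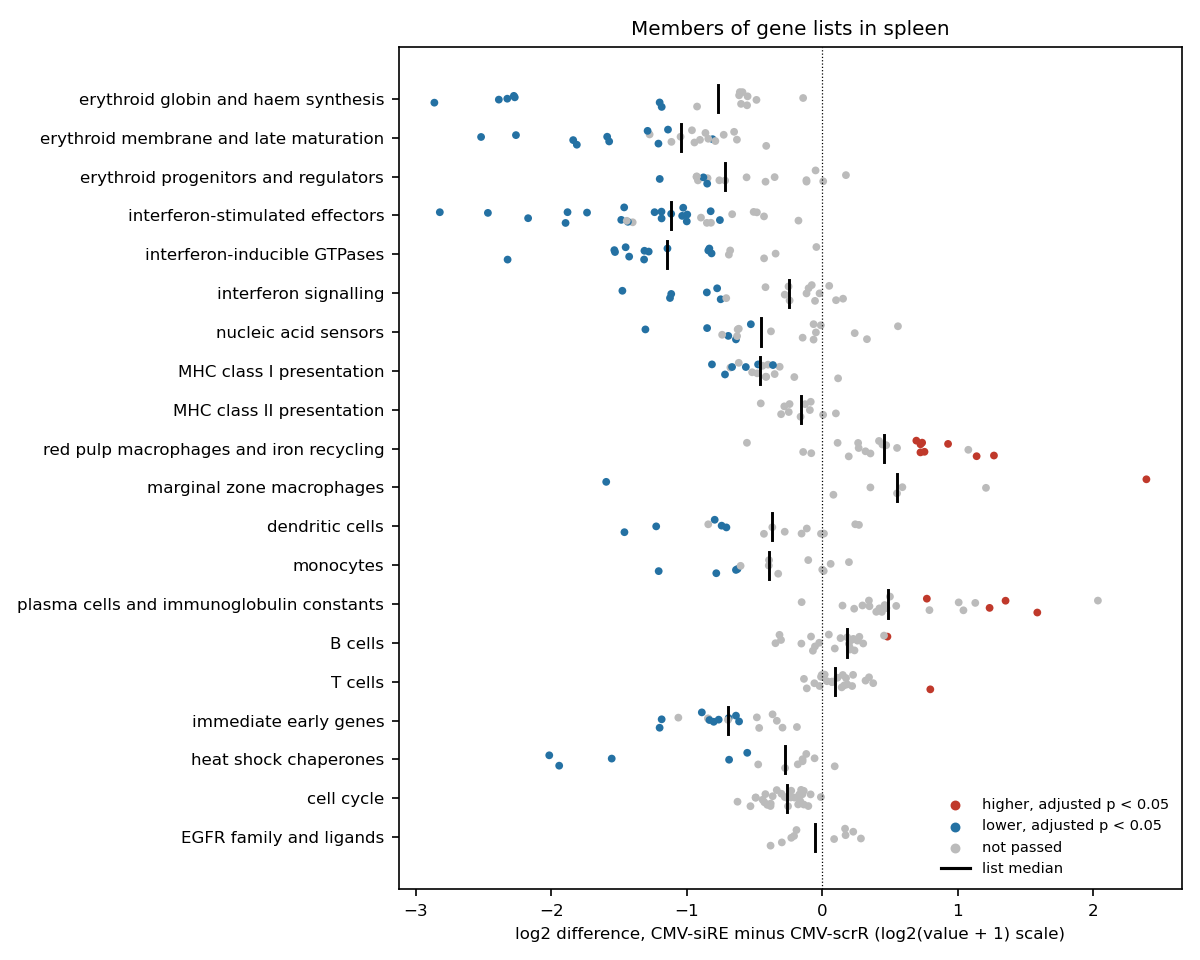
Difference between CMV-siRE and CMV-scrR spleens (x axis, log2) for every tested member of the main gene lists (rows); points are genes, coloured where the adjusted p was under 0.05, and black bars are list medians. Calls are all on the lower side in the erythroid, interferon and immediate early lists and all on the higher side in the red pulp macrophage and plasma cell lists.

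Lists with no call in either direction also included hypoxia and glycolysis (17 tested), nuclear oxidative phosphorylation (21) and regulatory or activated T cells (13), with 4, 1 and 1 members at an unadjusted limma p under 0.05. Among 13 mitochondrially encoded genes mt-Co2 rose (9423 ± 1605 against 18232 ± 3988, adjusted p = 0.0105), but not with Dbp as a covariate (adjusted p = 0.106). Of 19 clock genes 1 fell and 1 rose, against 2.88% lower and 1.73% higher over all genes. Both are repressors, and neither passed with Dbp as a covariate. Per1 fell from 1316 ± 161 to 889 ± 97.8 (-0.56 ± 0.11, adjusted p = 0.0124; 0.120 with Dbp). Nr1d2 rose from 443 ± 78.7 to 754 ± 130 (0.77 ± 0.17, adjusted p = 0.0191; 0.0778 with Dbp), and missed the threshold without CMV-siRE replicate 1 (0.0577) and without control replicates 1 and 3 (0.0891). Some genes named above share exonic bases with a neighbour in the annotation, and reads from those bases could come from either gene. The neighbour lies on the same strand for 57.2% of the exonic bases of Mzb1, 46.3% of Gbp10 and 13.9% of Rtp4. It lies on the opposite strand for 52.6% of Jund, 33.0% of Phlda1, 24.9% of Tapbp, 23.4% of Ccnd1, 22.1% of Dusp5, 19% of Hspa1a, 16.8% of Adar and 12.9% of Alas2, and counting by strand is not stated in the sources used here.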

How the data were processed

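Total RNA was extracted with TRIzol and made into TruSeq RNA libraries, per the labels' protocols. The deposited spleen table holds signal values per gene that the authors divided by library size factors; DESeq2 is named, without version or role, in the submitters' processing notes. Aligner, counter, genome build and annotation: not given in the sources used here. The values are fractional, and only 55.2% to 69.2% of low values (up to 20 steps, a step being the commonest value under 5) were whole multiples of the step within 0.1, so reads were not recovered and no count model was used. Of 36047 identifiers, 35968 carried GENCODE M21 versions, which supplied symbols and coordinates.

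From these values, limma 3.58.1 (R 4.3.3) was fitted with an intensity trend to log2(value + 1) of the 12 spleen libraries, 1 mean per circuit, for genes at 10 or more in at least 4 libraries, with Benjamini-Hochberg adjustment and a threshold of 0.05. The script was tested on simulated data. Scaled depth, the column total divided by the step, was alike, near 18.27 to 19.88 M per library. It takes the step as 1 read, which the low values did not establish, so it is only approximate. Depth limits genes with low values. Named genes were the 15 largest rises and 15 largest falls with groups that did not overlap, a mean of at least 50 and no predicted name, up to 5 called members of each of 47 lists, and up to 2 of a list with no call; exceptions are marked in the text or given to complete a short count. The comparison's members and gene lists were chosen with earlier results of these data known. Alternatives were another pseudocount, no filter, 8 libraries only, a replicate block, other scalings, library weights, Ddx3y or Dbp as a covariate, and leaving out libraries. Promoters came from RefSeq (GRCm38.p6). Values of some genes are not reported here.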

Additional observations from a re-analysis of the deposited data

Results flagged for a closer look

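A library stood apart from the other 3 of its group by a share of the group's range above Dixon's 95% critical value in 11 of the 258 groups of 4 checked (the control and CMV-siRE libraries of each gene described); chance gives such a gap in about 1 in 20 groups. Bcl2l1 was at 3110.7 in control replicate 2, the other 3 at 1964.5 to 2076.2. Aqp9 was at 561.3 in control replicate 2, the other 3 at 369.4 to 391.8. Cd5l was at 3747.2 in control replicate 3, the other 3 at 1915.2 to 2139.4. Mzb1 was at 2785.8 in control replicate 1, the other 3 at 1659.9 to 1785.5. Erbb3 was at 159.7 in control replicate 4, the other 3 at 123.8 to 129.1. Nr4a1 was at 1582.4 in CMV-siRE replicate 3, the other 3 at 1459.4 to 1478.6. Hsph1 was at 1763.0 in control replicate 4, the other 3 at 2546.0 to 2650.9. Ube2l6 was at 5668.6 in control replicate 4, the other 3 at 7512.9 to 7901.1. Per1 was at 1076.6 in control replicate 1, the other 3 at 1381.3 to 1421.4. Mx1 was at 421.5 in CMV-siRE replicate 4, the other 3 at 660.5 to 711.7. Apol11a was at 24.1 in CMV-siRE replicate 4, the other 3 at 49.8 to 57.1. For the genes called, the library that stood apart overlapped the other group only in Mzb1 (control replicate 1 above the lowest CMV-siRE value) and Hsph1 (control replicate 4 below the highest).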

How the results depend on the processing

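Genes at an adjusted p under 0.05 numbered 277 higher and 462 lower. They numbered 178 and 365 with a replicate block, 647 and 354 with scaling by the column total, 437 and 610 with Ddx3y as a covariate, 119 and 116 with Dbp as a covariate, and 141 and 142 without control replicates 1 and 3, an alternative added after seeing the data. The sex-linked gene Ddx3y was near the floor, at 0.0 to 9.3 in controls and 1.5 to 19.9 in CMV-siRE libraries, so no meaning is given to the fit that uses it. The same replicate number did not mark libraries that deviated together (correlations of -0.284, -0.061, -0.097 and -0.084, and no CMV-siRE library closest to its own number), so the numbers are taken as names only. Leaving out 1 library gave 137 to 238 genes higher and 282 to 412 lower, with shifts over 1.5 times without CMV-siRE replicate 1 (137 and 305), 2 (151 and 291) or 3 (156 and 293), and for genes lower without control replicate 3 (282). The 10 named genes that separated the EGFR circuits numbered 1 with Dbp as a covariate and 5 to 15 without a single library, 5 without CMV-siRE replicate 2 or 4. Egfr changed sign with Dbp as a covariate (0.13) and without control replicates 1 and 3 (0.0735), and Erbb2 did so without those controls (0.0497); neither passed anywhere. Of 107 described genes that passed, 54 did so under all 18 alternatives, 85 in each of 8 fits without a library, 97 with the replicate block, 71 without control replicates 1 and 3 and 57 with Dbp; none of the 107 changed direction. The cause of these changes was not tested. Precision is limited by 4 libraries a group and, for genes with low values, by depth.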

Other observations

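Some genes outside the naming rule were chosen after their values were seen. Bcl2l1, the anti-apoptotic BCL-XL that maturing red cells depend on, stood at 2076, 3111, 1964 and 2057 in controls and at 587, 574, 495 and 731 in CMV-siRE spleens. It fell by 1.93 (SE 0.19, adjusted p = 0.000129), with no overlap. Ube2l6, the enzyme that carries ISG15 to its targets, stood at 7901, 7540, 7513 and 5669 against 2366, 1976, 1412 and 1874 (-1.92 ± 0.18, adjusted p = 0.000129), and was 1.18 ± 0.18 higher in CMV-GE11-siRE than in CMV-siRE (adjusted p = 0.0201). Ppp1r15a, which switches translation back on after stress, fell from 4247 ± 1839 to 1009 ± 173 (-2.002 ± 0.28, adjusted p = 0.00155). Eln, the elastin gene, stood at 3794, 2291, 3144 and 3631 against 851, 1216, 635 and 805 (-1.89 ± 0.26, adjusted p = 0.00146). Its CMV-GE11-siRE values, with a mean of 994 ± 401, lay 0.14 ± 0.26 above CMV-siRE (adjusted p = 0.885).

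By the naming rule, the lipoxygenase Alox15 fell from 384, 266, 178 and 232 to 22.5, 38.8, 45.9 and 41.2 (-2.80 ± 0.35, adjusted p = 0.000914). Ccr3, the eosinophil chemokine receptor, rose from 315, 456, 720 and 406 to 1021, 1043, 917 and 780 (1.04 ± 0.19, adjusted p = 0.00877). It was the only 1 of 13 tested genes of basophils, mast cells and eosinophils to rise (median 0.18), against 1.73% higher over all genes. In the same list Hdc fell (-1.28), against 2.88% lower over all genes, and the eosinophil gene Siglecf was at -0.54 without passing. Hdc did not pass without control replicate 1, without control replicates 1 and 3, or with Dbp as a covariate. Cyp21a1, a steroid hydroxylase, rose from 18.6, 30.0, 23.7 and 57.3 to 94.9, 116, 102 and 106 (1.79 ± 0.29, adjusted p = 0.00420). Gm10925, an unprocessed pseudogene annotated on chromosome 1 and not named by the rule, rose from 3250 ± 1347 to 11321 ± 2393 (1.90 ± 0.30, adjusted p = 0.00320). Reads assigned to a pseudogene can come from the sequence it copies, so the origin of this rise is uncertain.

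Of the 3 genes lower in CMV-GE11-siRE than in CMV-siRE spleens, 2 are given here. Cd7, a lymphocyte surface protein, was at 626, 749, 816 and 773 in CMV-siRE and at 394.4, 417.3, 391.8 and 457.8 in CMV-GE11-siRE (-0.83 ± 0.11, adjusted p = 0.00854), with 607 ± 49.3 in controls. The heavy chain segment Ighv1-37 was listed at 0 in all 4 controls, at 14.3, 49.9, 53.5 and 22 in CMV-siRE and at 0, 1.1, 2.0 and 2.9 in CMV-GE11-siRE (adjusted p = 0.0170 between the EGFR circuits). Only its CMV-siRE values reached the 10 needed for testing, so it was tested because of the group where it was high. That adjusted p is therefore no support for the difference.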
